A study of Vitis vinifera with 24 samples.

Results

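A set of 74 genes was higher in berries of nitrogen-fertilized vines in both years and at both stages of ripening that were sequenced. The members were chosen from the measured levels, as the genes of both expression tables with a mean of at least 0.5 RPKM (reads per kilobase of counted exon, scaled to the mapped reads of the library) in each year and a log2 fold change (LFC, the mean log2(RPKM + 0.5) of soil N100 minus that of control) of at least 0.3 in each of the 4 comparisons of year and stage. They were 74 of 16899 genes with that mean level in both years, among 25334 genes listed in both tables. A further 9 genes met these limits but were left out of the set by their ID, and the mirrored rule, with an LFC of -0.3 or lower in each comparison, was met by 63 genes. Since the LFC of soil N100 against control chose the members, it is given below as a description and without a test.

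RNA was taken from whole Sauvignon blanc berries (*Vitis vinifera*) grown at 1 Bordeaux vineyard that had been selected for its low nitrogen (N) status. Vines of the soil N100 treatment received ammonium nitrate on the soil at bud break and at flowering, and control vines received no fertilizer, while both treatments were irrigated against water shortage. The study reports that fertilization delayed ripening by a few days, and it kept the same sampling dates for both treatments. A difference between treatments therefore cannot be told apart from a difference in ripeness, and the part of this delay in the values below was not tested. Berries were sampled 28 days after mid-veraison (v + 28), called mid-ripening in the study, and 35 days after it (v + 35), called ripeness, in 2013 and in 2014. Each of the 8 groups held 3 libraries, 24 in all, and a replicate was a block of vines, so that the berries of a library came from many plants. One clone grafted on Fercal was used in 2013 and another clone on another rootstock in 2014, so that season and plant material cannot be told apart and the years were not compared by a test.

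After veraison the berry softens while enzymes loosen the pectin of its cell walls, and it stores sugars, organic acids and inorganic ions in large vacuoles. Ripening grape berries are also known for high amounts of pathogenesis-related proteins, such as chitinases, glucanases and thaumatin-like proteins, some of which form haze in white wine. In Arabidopsis many such genes are controlled through salicylic acid, a defence hormone, and its receptor NPR1. The functions named below come from the study's own gene tables, where they rest on the best match in Arabidopsis or on the grape annotation. Of the 74 members 49 were described there, 38 by a function and 11 as unknown, and 25 had no description. The study lists these genes because they were called between the treatments on these same samples. The number of members with a given function, and the counts and medians of every list of described genes below, are therefore no independent evidence of a direction, and nothing is read from their distance to all genes.

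The reads in genes amounted to 29.6 to 80.0 M per library. At (v + 28) in 2013 every soil N100 library was deeper (44.2 to 53.9 M) than every control library (30.3 to 35.6 M), and the part of this in the LFC was not tested. In the other 3 comparisons the depths of the treatments overlapped. Replicates of a group correlated with r of 0.973 to 0.996 across the 16899 genes. The median LFC of all these genes was -0.10 at both stages of 2013, -0.05 at (v + 28) and -0.01 at (v + 35) in 2014.

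The LFC of the members was larger in 2013 than in 2014. Its median was 0.90 at (v + 28) and 0.72 at (v + 35) in 2013, and 0.51 and 0.48 at the same stages in 2014. An LFC of at least 1 was reached by 27 members at (v + 28) and 11 at (v + 35) in 2013, and by 4 and 2 in 2014. Larger differences in 2013 were not confined to the members. Of all genes, 6.64% and 5.74% had an LFC of at least 0.3 at these stages in 2013, and 2.29% and 2.88% in 2014. An LFC of -0.3 or lower was found for 12.9% and 11.8% of all genes in 2013, and for 1.89% and 3.75% in 2014. For 65 of the 74 genes the mean LFC of both stages was larger in 2013. Within 2013 the LFC was larger at (v + 28) than at (v + 35) in 59 members, and within 2014 in 38 members. The berries were whole, so that more RNA per cell cannot be told apart from more cells of a kind in any of these values.

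**Figure D1:**
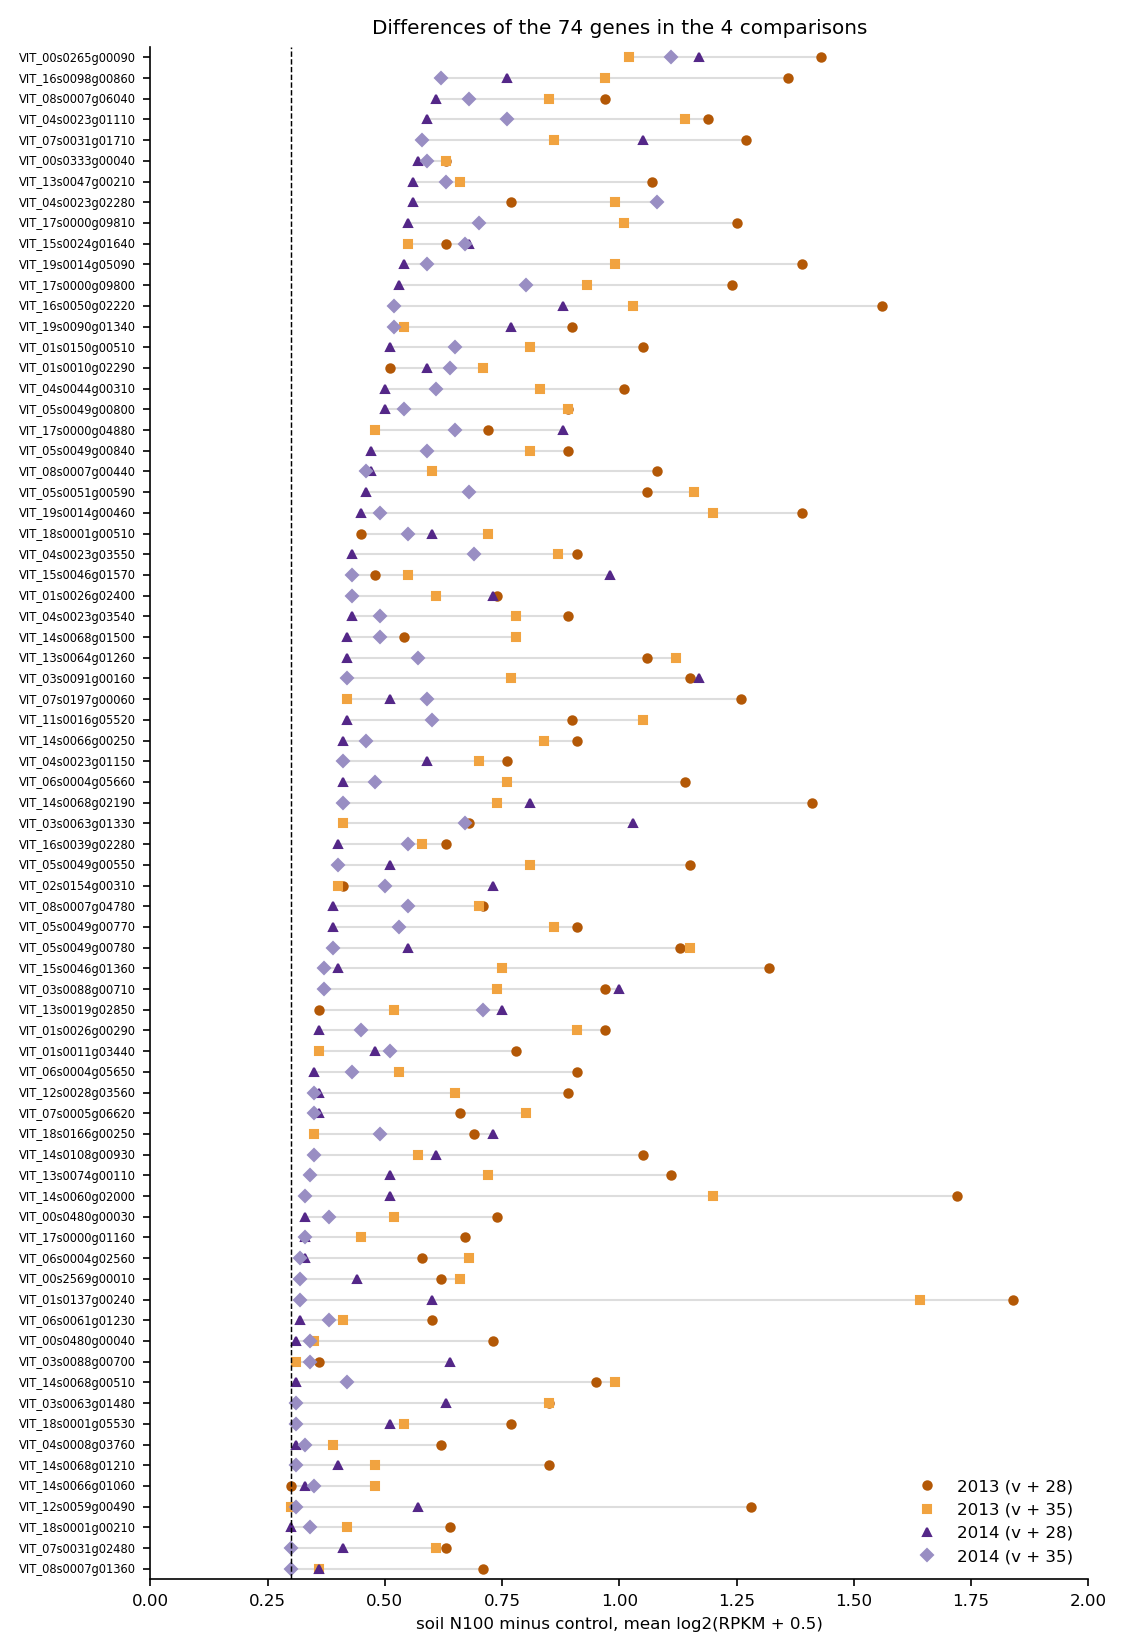
The horizontal axis gives the LFC (soil N100 minus control, log2(RPKM + 0.5)) of each of the 74 genes in the 4 comparisons, with genes sorted from top to bottom by the smallest of their 4 values. All points lie at or above the dashed line at 0.3 because that limit chose the genes, and the 2013 points reach 1.84 whereas those of 2014 end at 1.17.

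In 53 members the lowest soil N100 library lay above the highest control library at (v + 28) in 2013, where 5.59% of the 16899 genes did so. At (v + 35) in 2013 the number was 44 members, beside 4.79% of all genes. In 2014 it was 41 members at (v + 28), beside 1.69%, and 33 members at (v + 35), beside 2.68%. In 17 members the libraries did not overlap in any of the 4 comparisons, which held for 0.189% of all genes, and in 6 members they overlapped in all 4. These counts share their measurements with the rule and only describe how the libraries lie.

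Most genes that were higher in 2013 did not reach the limit in 2014. At both stages of 2013 an LFC of at least 0.3 was found for 580 genes, of which 83 (14.3%) also had it at both stages of 2014. Of all genes 0.763% had it at both stages of 2014. Counted from the other year, those 83 genes were 64.3% of the 129 genes with an LFC of at least 0.3 at both stages of 2014, beside 3.43% of all genes at this limit in 2013. The 580 genes of 2013 had a median LFC of 0.15 at (v + 28) and 0.19 at (v + 35) in 2014, and 70.5% of them were above 0 at both stages of that year, beside 17.8% of all genes. The 129 genes of 2014 had a median LFC of 0.71 at (v + 28) and 0.55 at (v + 35) of 2013.

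The gene with the largest value of the smallest of its 4 LFCs was *VIT_00s0265g00090*, described as an unknown protein. It had 5.22, 0.972 and 3.07 RPKM in soil N100 libraries, against 0.85, 0.446 and 0.694 RPKM in control libraries at (v + 28) in 2013 (LFC 1.43). At (v + 35) in 2013 the values were 2.5, 1.87 and 1.69 RPKM in soil N100 libraries, against 0.655, 1.15 and 0.475 RPKM in control libraries (LFC 1.02). The treatments did not overlap at either stage, although soil N100 replicate 2 at (v + 28) was only just above the highest control. In 2014 the gene stood at a higher level, with 13.4, 8.56 and 8.42 RPKM in soil N100 libraries, against 4.38, 3.58 and 4.45 RPKM in control libraries at (v + 28) (LFC 1.17). At (v + 35) in 2014 it had 13.1, 14.7 and 13.7 RPKM in soil N100 libraries, against 5.79, 6.3 and 6.37 RPKM in control libraries (LFC 1.11), so that every soil N100 library had more than 2 times the highest control value. The level over all libraries was 1.63 RPKM in 2013 and 8.56 RPKM in 2014, while the LFC was similar in both.

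**Figure D2:**
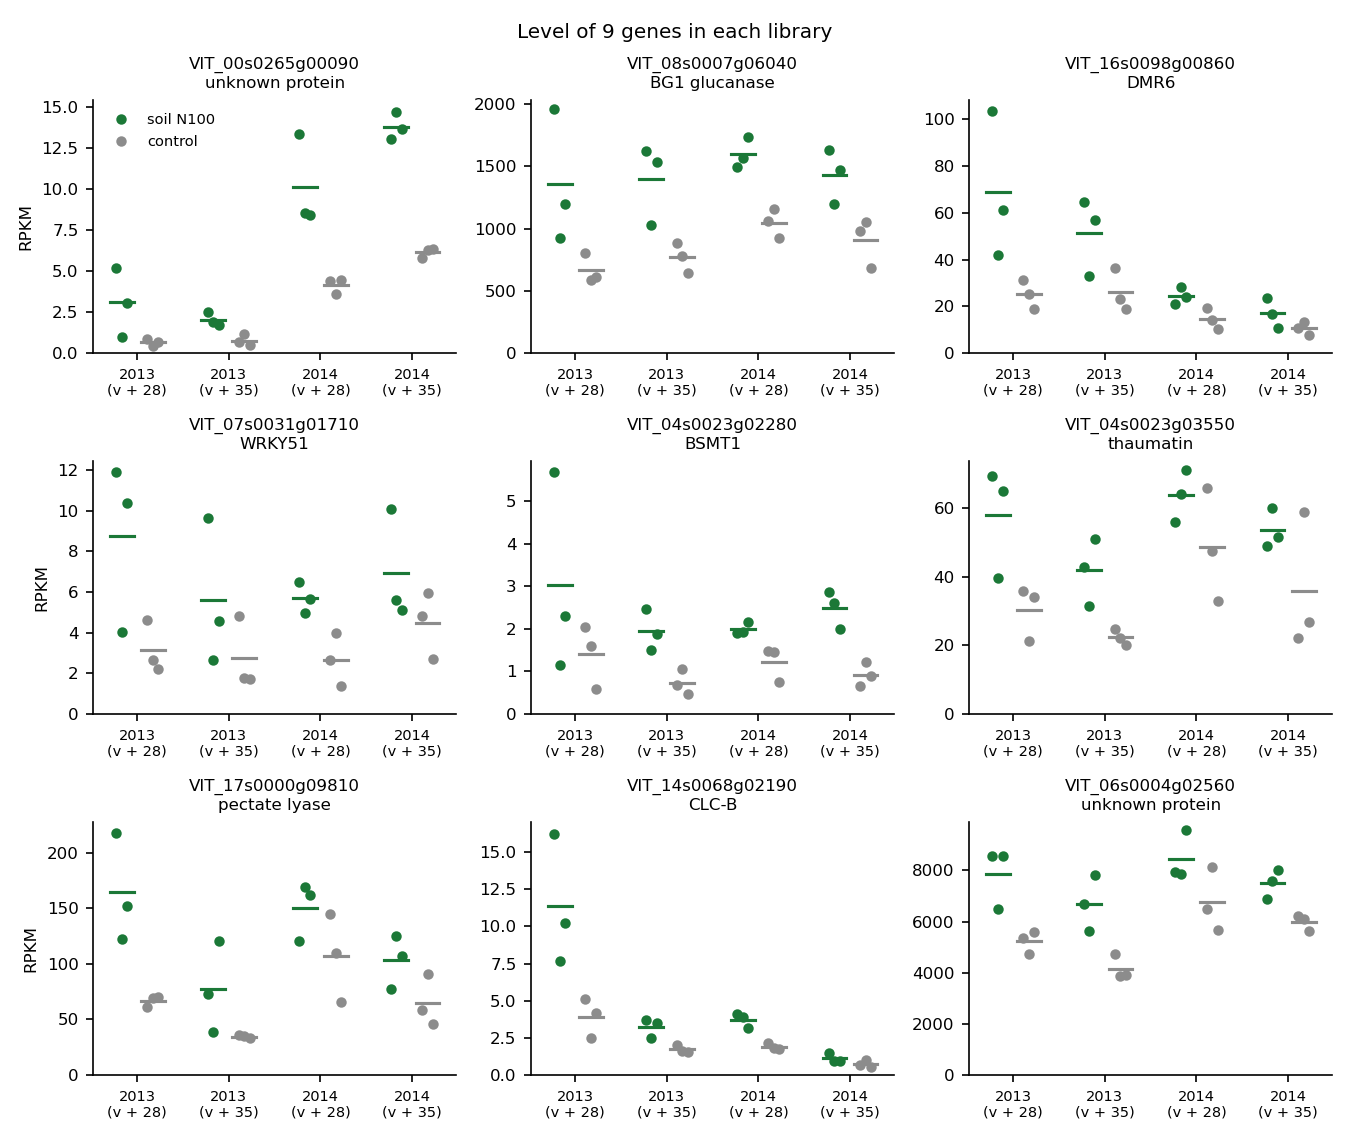
Each panel plots the RPKM of 1 gene in every library, with soil N100 (green) left of control (grey) in each comparison of year and stage, and the bar at the mean of the 3 libraries. The separation of the treatments varies from gene to gene, from no overlap in any comparison for the glucanase to overlap in 3 of 4 comparisons for WRKY51.

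Among the members were 5 genes grouped here as regulators or enzymes of salicylic acid responses. The grouping rests on the Arabidopsis proteins whose names they carry, since the descriptions themselves do not name salicylic acid. Both genes described as DMR6 are of this kind, since the Arabidopsis protein is an oxygenase that hydroxylates salicylic acid, and mutants in it resist downy mildew. *VIT_16s0098g00860* had 103, 41.8 and 61.1 RPKM in soil N100 libraries, against 31.1, 25.4 and 19 RPKM in control libraries at (v + 28) in 2013 (LFC 1.36). At (v + 35) in 2013 it had 64.6, 33 and 57.1 RPKM in soil N100 libraries, against 36.6, 23.2 and 18.7 RPKM in control libraries (LFC 0.97), with soil N100 replicate 2 below the highest control. In 2014 it had 20.8, 28.1 and 24 RPKM in soil N100 libraries, against 19.2, 13.9 and 10.3 RPKM in control libraries at (v + 28) (LFC 0.76) and 23.4, 16.7 and 10.7 RPKM in soil N100 libraries, against 10.7, 13.3 and 7.78 RPKM in control libraries at (v + 35) (LFC 0.62). The treatments were apart at (v + 28) and overlapped at (v + 35) in that year, and the level of the gene was lower than in 2013. The other gene, *VIT_13s0047g00210*, had LFCs of 1.07 and 0.66 in 2013 and 0.56 and 0.63 in 2014 at (v + 28) and (v + 35), and its libraries overlapped only at (v + 35) in 2014.

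*VIT_07s0031g01710*, described as WRKY51, encodes a transcription factor that in Arabidopsis takes part in the repression of jasmonate responses by salicylic acid. It had 11.9, 4.04 and 10.4 RPKM in soil N100 libraries, against 4.63, 2.64 and 2.23 RPKM in control libraries at (v + 28) in 2013 and 9.63, 2.65 and 4.56 RPKM in soil N100 libraries, against 4.81, 1.75 and 1.74 RPKM in control libraries at (v + 35). In 2014 the values were 6.49, 4.97 and 5.67 RPKM in soil N100 libraries, against 2.65, 4.01 and 1.36 RPKM in control libraries at (v + 28) and 10.1, 5.63 and 5.12 RPKM in soil N100 libraries, against 4.8, 5.94 and 2.7 RPKM in control libraries at (v + 35). Its LFCs were 1.27 and 0.86 in 2013 and 1.05 and 0.58 in 2014, and only the libraries of (v + 28) in 2014 were apart. Replicate 2 of soil N100 was the lowest of its group at both stages of 2013, whereas replicate 1 was the highest in all 4 groups of soil N100.

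*VIT_04s0023g02280*, described as BSMT1, encodes a methyltransferase that in Arabidopsis turns salicylic and benzoic acid into their volatile methyl esters. It was lowly expressed, with 5.68, 1.15 and 2.3 RPKM in soil N100 libraries, against 2.05, 1.59 and 0.591 RPKM in control libraries at (v + 28) in 2013 and 2.48, 1.51 and 1.88 RPKM in soil N100 libraries, against 0.686, 1.06 and 0.477 RPKM in control libraries at (v + 35). In 2014 it had 1.89, 1.92 and 2.17 RPKM in soil N100 libraries, against 1.49, 1.47 and 0.749 RPKM in control libraries at (v + 28) and 2.88, 2.61 and 1.99 RPKM in soil N100 libraries, against 0.666, 1.23 and 0.89 RPKM in control libraries at (v + 35). It was one of the genes whose LFC (0.77, 0.99, 0.56 and 1.08 in this order) was largest at (v + 35) in 2014, and the treatments overlapped only at (v + 28) in 2013. NIMIN-2 (*VIT_01s0011g03440*), whose Arabidopsis counterpart binds NPR1, was the most abundant of these genes with 67.2 RPKM in 2013 and 56.3 RPKM in 2014. It averaged 97 ± 23.3 RPKM in soil N100 and 56.1 ± 11 RPKM in control berries (SD, n = 3 each) at (v + 28) in 2013, and its LFCs were 0.78 and 0.36 in 2013 and 0.48 and 0.51 in 2014. The list of regulators of defence and salicylic acid held 14 genes with a sufficient level, of which these 5 were members and 8 were above 0 in all 4 comparisons. The median LFC of the 14 was 0.72 and 0.37 in 2013 and 0.18 and 0.27 in 2014 at (v + 28) and (v + 35), values that restate how the list and its 5 members were selected.

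Defence proteins formed a second group. *VIT_08s0007g06040*, described as a beta-1,3-glucanase (BG1), an enzyme that cleaves a polymer of fungal cell walls, was the most abundant member with a described function and had no overlap in any comparison. In 2013 it had 1963, 924 and 1200.5 RPKM in soil N100 libraries, against 806, 584 and 613 RPKM in control libraries at (v + 28) (LFC 0.97, SE 0.26). At (v + 35) the values were 1626, 1027 and 1538 RPKM in soil N100 libraries, against 888, 776 and 641 RPKM in control libraries (LFC 0.85). The lowest soil N100 library of 2013 was replicate 2 at both stages. In 2014 it had 1496, 1567 and 1734 RPKM in soil N100 libraries, against 1058, 1156 and 924 RPKM in control libraries at (v + 28) (LFC 0.61, SE 0.17). At (v + 35) it had 1631, 1198 and 1472 RPKM in soil N100 libraries, against 981, 1056 and 681 RPKM in control libraries (LFC 0.68).

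The thaumatin-like genes *VIT_04s0023g03540* and *VIT_04s0023g03550* have adjacent IDs and moved alike from library to library (r = 0.93 in 2013 and 0.96 in 2014 for the deviations from the group means of the 12 libraries of a year). *VIT_04s0023g03550* had 69.2, 39.7 and 64.8 RPKM in soil N100 libraries, against 35.8, 21.3 and 34.1 RPKM in control libraries at (v + 28) in 2013 and 42.9, 31.5 and 51 RPKM in soil N100 libraries, against 24.7, 22.1 and 20.1 RPKM in control libraries at (v + 35). In 2014 it had 55.9, 64 and 71 RPKM in soil N100 libraries, against 65.8, 47.5 and 32.8 RPKM in control libraries at (v + 28) and 48.9, 60 and 51.5 RPKM in soil N100 libraries, against 22.2, 58.8 and 26.8 RPKM in control libraries at (v + 35). Both genes were free of overlap in 2013 and overlapped in 2014, where 1 control library at each stage reached the values of soil N100. Only uniquely aligned reads were counted, so that reads shared by near-identical neighbours are missing from the values of both.

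The acidic endochitinase *VIT_16s0050g02220*, which cleaves chitin, was at a low level in control berries. It had 4.04, 0.586 and 4.07 RPKM in soil N100 libraries, against 0.523, 0.329 and 0.542 RPKM in control libraries at (v + 28) in 2013, and 7.76, 0.922 and 1.62 RPKM in soil N100 libraries, against 2.67, 0.456 and 0.475 RPKM in control libraries at (v + 35). It had 1.66, 1.25 and 1.5 RPKM in soil N100 libraries, against 0.494, 0.65 and 0.553 RPKM in control libraries at (v + 28) in 2014. The LFCs were 1.56 and 1.03 in 2013 and 0.88 and 0.52 in 2014 with an SE of 0.69 in 2013, and soil N100 replicate 2 stayed within the range of the controls or just above it in 2013. The PR-1-like gene ATPRB1 (*VIT_03s0088g00710*), a basic pathogenesis-related protein, had 69.7, 10.9 and 39.3 RPKM in soil N100 libraries, against 17.5, 16.2 and 13.4 RPKM in control libraries at (v + 28) in 2013, so that replicate 2 was the lowest of all 6 libraries. At (v + 28) in 2014 it had 44.9, 46.4 and 43.4 RPKM in soil N100 libraries, against 19.5, 31 and 18.2 RPKM in control libraries (LFC 1.00), without overlap. In this gene the treatments overlapped at (v + 35) in both years, with LFCs of 0.74 in 2013 and 0.37 in 2014. Its undescribed neighbour by ID, *VIT_03s0088g00700*, had LFCs of 0.36 and 0.31 in 2013 and 0.64 and 0.34 in 2014. The list of defence proteins held 17 genes with a sufficient level, of which the rule left out 7 by ID. Of the other 10, 5 were members and 8 were above 0 in all 4 comparisons, with a median LFC of 0.73 and 0.81 in 2013 and 0.43 and 0.33 in 2014.

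The cell wall category supplied 6 members. Of 34 genes of this category with a sufficient level 25 were above 0 in all 4 comparisons. All genes had a share of 8.46%, but the 34 were listed by the study for a difference between the treatments in these libraries, so a higher share follows from their selection. The median LFC of the 34 was 0.59 and 0.68 in 2013 and 0.18 and 0.21 in 2014. Pectate lyases, which cut the pectin backbone, made up 3 of the 6. *VIT_17s0000g09810* had 218, 122 and 153 RPKM in soil N100 libraries, against 61.3, 69.3 and 70.1 RPKM in control libraries at (v + 28) in 2013 (LFC 1.25) and 72.8, 39.2 and 121 RPKM in soil N100 libraries, against 35.8, 35.1 and 33.2 RPKM in control libraries at (v + 35) (LFC 1.01). In 2014 it had 121, 169.6 and 162 RPKM in soil N100 libraries, against 145, 110.2 and 65.4 RPKM in control libraries at (v + 28) and 77.4, 125 and 107 RPKM in soil N100 libraries, against 58.4, 90.6 and 45.6 RPKM in control libraries at (v + 35). The control libraries of 2013 lay close together below every soil N100 library, and those of 2014 spread into the range of soil N100.

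*VIT_01s0137g00240*, a pectate lyase at a much lower level, had the largest LFC of the 74 genes in 2013. It had 11.8, 7.58 and 14.7 RPKM in soil N100 libraries, against 2.18, 2.43 and 3.69 RPKM in control libraries at (v + 28) (LFC 1.84, SE 0.28), and 4.4, 2.99 and 6.55 RPKM in soil N100 libraries, against 1.46, 0.863 and 0.978 RPKM in control libraries at (v + 35) (LFC 1.64). In 2014 the LFC was 0.60 and 0.32, and the treatments overlapped at both stages. The third pectate lyase, *VIT_05s0051g00590*, averaged 187 ± 29.8 RPKM in soil N100 and 89.9 ± 17.7 RPKM in control berries at (v + 28) in 2013 and 115 ± 17.1 RPKM in soil N100 and 89.6 ± 39.7 RPKM in control berries at (v + 28) in 2014 (SD, n = 3 each). Its LFCs were 1.06 and 1.16 in 2013 and 0.46 and 0.68 in 2014. Expansin A6 (*VIT_08s0007g00440*), a protein that loosens walls, averaged 14.2 ± 1.82 RPKM in soil N100 and 6.59 ± 1.81 RPKM in control berries at (v + 28) in 2013, with LFCs of 1.08 and 0.60 in 2013 and 0.47 and 0.46 in 2014. The arabinogalactan protein AGP20 (*VIT_15s0046g01360*), a glycoprotein of the cell surface, had LFCs of 1.32 and 0.75 in 2013 and 0.40 and 0.37 in 2014. The mannan synthase *VIT_06s0061g01230*, which makes a hemicellulose, had 0.60 and 0.41 in 2013 and 0.32 and 0.38 in 2014. In all 6 members of the category the treatments overlapped at (v + 28) in 2014, where control replicate 1 was the highest control and replicate 3 the lowest. At (v + 35) in 2014 only expansin A6 was free of overlap. Expansin A6 and the mannan synthase also overlapped at (v + 35) in 2013. Beta-galactosidase 10 (*VIT_07s0031g02480*), placed in another category, trims galactose from wall polymers and had LFCs of 0.63 and 0.61 in 2013 and 0.41 and 0.30 in 2014.

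Both members of the transport category belong to proteins of the vacuolar membrane in Arabidopsis. CLC-B (*VIT_14s0068g02190*), of a family of chloride channels and nitrate exchangers, had 16.2, 7.66 and 10.2 RPKM in soil N100 libraries, against 5.11, 2.48 and 4.17 RPKM in control libraries at (v + 28) in 2013 (LFC 1.41). At (v + 35) it had 3.69, 2.48 and 3.52 RPKM in soil N100 libraries, against 1.99, 1.59 and 1.58 RPKM in control libraries (LFC 0.74). In 2014 the values were 4.11, 3.88 and 3.17 RPKM in soil N100 libraries, against 2.17, 1.82 and 1.74 RPKM in control libraries at (v + 28) (LFC 0.81) and 1.5, 0.949 and 0.943 RPKM in soil N100 libraries, against 0.663, 0.991 and 0.531 RPKM in control libraries at (v + 35) (LFC 0.41). The treatments overlapped only in the last of these, where the level was lowest. The gamma tonoplast intrinsic protein *VIT_08s0007g04780*, a water channel, had no overlap in any comparison and averaged 530.2 ± 32.3 RPKM in soil N100 and 324 ± 41 RPKM in control berries at (v + 28) in 2013 (SD, n = 3 each). Its LFCs were 0.71 and 0.70 in 2013 and 0.39 and 0.55 in 2014. Of 36 genes of the transport category with a sufficient level, 2 were left out by ID and these 2 were members.

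A further pair of genes was described as nodulin-related. *VIT_04s0044g00310* belongs to the MtN21 family, members of which carry amino acids in Arabidopsis, and had no overlap in any comparison with LFCs of 1.01 and 0.83 in 2013 and 0.50 and 0.61 in 2014. It averaged 3.47 ± 0.913 RPKM in soil N100 and 1.48 ± 0.514 RPKM in control berries at (v + 28) in 2013 and 3.19 ± 0.265 RPKM in soil N100 and 2.2 ± 0.804 RPKM in control berries at (v + 28) in 2014 (SD, n = 3 each). *VIT_17s0000g01160*, described as a nodulin family protein, had 0.67 and 0.45 in 2013 and 0.33 and 0.33 in 2014 and overlapped in all comparisons but (v + 28) in 2013. The list of nitrate and amide nitrogen genes held 8 genes with a sufficient level, 1 of them left out by ID, and none was a member, although 6 of the others were above 0 in all 4 comparisons.

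Other described members stood in several categories. PP2-B13 (*VIT_14s0060g02000*), a lectin of the phloem protein type, had no overlap in any comparison, with LFCs of 1.72 and 1.20 in 2013 and 0.51 and 0.33 in 2014. It had 15.3, 6.06 and 15.1 RPKM in soil N100 libraries, against 3.62, 2.1 and 3.68 RPKM in control libraries at (v + 28) in 2013 and 50.3, 43.3 and 51.6 RPKM in soil N100 libraries, against 29.6, 38.8 and 33.7 RPKM in control libraries at (v + 28) in 2014. The LFC was larger in 2013, where the level was low, and the mean over all libraries was 11.3 RPKM in 2013 and 50.6 RPKM in 2014. The type 2C protein phosphatase *VIT_01s0150g00510*, the GDSL lipase *VIT_14s0066g00250* and annexin 1 (*VIT_18s0001g05530*), which binds membranes in the presence of calcium, were also free of overlap throughout. Their LFCs ranged from 0.31 to 1.05. The thioredoxin-like CXXS1 (*VIT_19s0014g05090*) had LFCs of 1.39 and 0.99 in 2013 and 0.54 and 0.59 in 2014, and the MYB transcription factor *VIT_07s0197g00060* had 1.26 and 0.42 in 2013 and 0.51 and 0.59 in 2014. Each of these overlapped in 1 comparison of 2013 only.

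The leucine-rich repeat protein *VIT_13s0064g01260* was abundant at (v + 28) in 2013, with 564 ± 119 RPKM in soil N100 and 270.4 ± 59.4 RPKM in control berries (SD, n = 3 each), and had LFCs of 1.06 and 1.12 in 2013 and 0.42 and 0.57 in 2014. The glycosyl transferase *VIT_06s0004g05660* had 1.14 and 0.76 in 2013 and 0.41 and 0.48 in 2014, and GSTU10 (*VIT_01s0026g02400*), a glutathione S-transferase that conjugates glutathione to small molecules, had 0.74 and 0.61 in 2013 and 0.73 and 0.43 in 2014. The value of GSTU10 at (v + 28) in 2013 came largely from 1 library, with 0.708, 0.213 and 4.24 RPKM in soil N100 libraries, against 0.606, 0.469 and 0.321 RPKM in control libraries. Without soil N100 replicate 3 its LFC in that comparison was below 0 (-0.05). The glycine-rich protein GRP3S (*VIT_12s0059g00490*) had 358, 180.2 and 546 RPKM in soil N100 libraries, against 149, 133 and 123 RPKM in control libraries at (v + 28) in 2013, an LFC of 1.28, and LFCs of 0.30 to 0.57 in the other comparisons. The remaining described genes were a serine endopeptidase (*VIT_18s0001g00510*), the phosphodiesterase SRG3 (*VIT_14s0068g01500*), a plastocyanin-like protein (*VIT_11s0016g05520*), the mitochondrial ribosomal protein RPL2 (*VIT_01s0026g00290*), a phosphorylase (*VIT_13s0074g00110*), a short-chain dehydrogenase (*VIT_14s0068g01210*) and a heme-binding electron carrier (*VIT_03s0063g01480*). Their LFCs ranged from 0.31 to 1.11, and RPL2 was free of overlap in 3 comparisons and the dehydrogenase in none.

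No member was described in the categories of photosystem and signalling or in the lists of phosphate and zinc homeostasis, wound-responsive proteins, seed proteins and heat shock proteins. The 29 photosystem genes with a sufficient level had a median LFC of 0.67 and 0.72 in 2013 and 0.07 and 0.25 in 2014, and 22 of them were above 0 in all 4 comparisons. Their median at (v + 28) in 2014 was thus 0.07 beside -0.05 for all genes, under the limit of the rule. The wound-responsive genes had a median LFC of 0.99 at (v + 28) and -0.59 at (v + 35) in 2013, and none of the 8 was above 0 in all 4 comparisons.

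The most abundant members had no known function. *VIT_06s0004g02560*, described as an unknown protein, had 8550.5, 6501 and 8565 RPKM in soil N100 libraries, against 5371, 4743 and 5578 RPKM in control libraries at (v + 28) in 2013. At (v + 35) it had 6678, 5615 and 7805 RPKM in soil N100 libraries, against 4719, 3858 and 3916 RPKM in control libraries. In 2014 it had 7928, 7849 and 9599 RPKM in soil N100 libraries, against 6512, 8138 and 5681 RPKM in control libraries at (v + 28) and 6900.4, 7588 and 8026 RPKM in soil N100 libraries, against 6213, 6120.2 and 5628 RPKM in control libraries at (v + 35). Its LFCs were 0.58 and 0.68 in 2013 and 0.33 and 0.32 in 2014, and the treatments overlapped only at (v + 28) in 2014, through 1 control library. *VIT_19s0090g01340*, without a description, averaged 3346 ± 1138 RPKM in soil N100 and 1764 ± 471 RPKM in control berries at (v + 28) in 2013 and 2094 ± 600.3 RPKM in soil N100 and 1201 ± 184 RPKM in control berries at (v + 28) in 2014 (SD, n = 3 each). The unknown protein *VIT_04s0023g01110* had no overlap in any comparison, with 799, 508 and 664 RPKM in soil N100 libraries, against 372, 205 and 295 RPKM in control libraries at (v + 28) in 2013. At (v + 28) in 2014 it had 699, 675 and 676 RPKM in soil N100 libraries, against 492, 486 and 387 RPKM in control libraries, and its LFCs were 1.19 and 1.14 in 2013 and 0.59 and 0.76 in 2014. Together with the glucanase and *VIT_05s0049g00770* these were the 5 members with the highest mean level. In all, 10 members exceeded 100 RPKM in both years and 23 stayed under 5 RPKM in both, while the median level of the members (9.54 RPKM in 2013 and 8.68 RPKM in 2014) was close to that of all 16899 genes (9.52 and 9.15 RPKM).

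Further members without a known function were at low or middle levels. Exceptions named below were *VIT_05s0049g00550* (538 RPKM in 2013 and 283 RPKM in 2014) and *VIT_06s0004g05650* (118 RPKM and 115 RPKM). Of the unknown proteins, *VIT_00s0333g00040* had LFCs of 0.63 and 0.63 in 2013 and 0.57 and 0.59 in 2014, and *VIT_07s0005g06620*, at 1.56 RPKM in 2013 and 3.35 RPKM in 2014, was free of overlap in all comparisons. *VIT_19s0014g00460* had LFCs of 1.39 and 1.20 in 2013 and 0.45 and 0.49 in 2014, and *VIT_14s0108g00930*, of unknown function, had 1.05 and 0.57 in 2013 and 0.61 and 0.35 in 2014. Of 7 more genes with no description, *VIT_00s2569g00010* was free of overlap in all comparisons at 4.14 RPKM in 2013 and 4.16 RPKM in 2014. The remaining 6 (*VIT_03s0091g00160*, *VIT_03s0063g01330*, *VIT_16s0039g02280*, *VIT_02s0154g00310*, *VIT_04s0008g03760* and *VIT_14s0066g01060*) had LFCs of 0.30 to 1.17 and were free of overlap in 0 to 3 comparisons.

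Some members had IDs close to each other. IDs of this annotation run in steps of 10 along a scaffold. Of the 74 genes, 16 had another member on the same scaffold with an ID number that differed by at most 100, on 6 scaffolds. The share for all genes was not computed, so the count is given as a description only. Besides the thaumatin-like pair, the pectate lyase *VIT_17s0000g09810* lay beside the undescribed *VIT_17s0000g09800*, with which it moved from library to library (r = 0.93 in 2013 and 1.00 in 2014). The glycosyl transferase *VIT_06s0004g05660* lay beside the unknown protein *VIT_06s0004g05650*, which was free of overlap in all comparisons with LFCs of 0.91 and 0.53 in 2013 and 0.35 and 0.43 in 2014. *VIT_04s0023g01110* differed by 40 in ID number from the unknown protein *VIT_04s0023g01150*, also free of overlap, with LFCs of 0.76 and 0.70 in 2013 and 0.59 and 0.41 in 2014. The undescribed *VIT_00s0480g00030* and *VIT_00s0480g00040* correlated with r = 0.93 and 0.99.

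The largest group was on scaffold 05s0049, with *VIT_05s0049g00770*, *VIT_05s0049g00780*, *VIT_05s0049g00800* and *VIT_05s0049g00840*, and *VIT_05s0049g00550* farther off. None of these had a description. *VIT_05s0049g00770* had 769, 698 and 774 RPKM in soil N100 libraries, against 453, 297 and 469 RPKM in control libraries at (v + 28) in 2013. At (v + 28) in 2014 it had 848, 876 and 845 RPKM in soil N100 libraries, against 826, 638 and 530.1 RPKM in control libraries. In this gene, in *VIT_05s0049g00800* and in *VIT_05s0049g00840* the treatments did not overlap in any comparison, and the LFCs of the 3 genes ranged from 0.39 to 0.91. Among the 13 genes of the stretch from g00500 to g00850 with a sufficient level, 5 were members, beside 74 of all 16899 genes. In 10 of the 13 the LFC was above 0 in all 4 comparisons, beside 8.46% of all genes. The stretch was marked out around its members, so higher shares follow from that choice. The most abundant of them, *VIT_05s0049g00520* and *VIT_05s0049g00760*, had LFCs of 0.00 to 0.06 and 0.08 to 0.27, so the neighbours were not alike.

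Pairs of members that lay far apart also went together within the groups. In both years a correlation of at least 0.9 was found for 12 pairs, in 5 of which both genes had the same scaffold. The undescribed *VIT_01s0010g02290* and *VIT_13s0019g02850* correlated with r = 0.94 in 2013 and 0.98 in 2014, and *VIT_15s0046g01570* and *VIT_17s0000g04880* with r = 0.95 and 0.93. The pectate lyase *VIT_05s0051g00590* and the mannan synthase *VIT_06s0061g01230* had r = 0.96 and 0.94. Over all 2701 pairs of members the median was 0.45 in 2013 and 0.07 in 2014, beside 0.03 and 0.02 over all pairs of the 16899 genes. The 12 values of a year behind each of these share their libraries and depths.

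The limit of the rule ran through genes with nearly equal values. Just inside were *VIT_18s0001g00210* and *VIT_07s0031g02480* (smallest LFC 0.302 each) and *VIT_08s0007g01360* (0.30). Just outside were *VIT_03s0091g00310* (0.299), *VIT_16s0039g02370* (0.297) and *VIT_08s0007g01370* (0.294), which follows *VIT_08s0007g01360* by ID and is described as a lipid transfer protein. Both genes of that pair had no overlap in any comparison, so that genes with a small LFC could still have closely agreeing replicates. *VIT_08s0007g01360* had 124, 119 and 111 RPKM in soil N100 libraries, against 97, 88.6 and 103 RPKM in control libraries at (v + 35) in 2014 (LFC 0.30, SE 0.07). At the other end of precision, *VIT_15s0024g01640*, with a smallest LFC of 0.549, rested on 3 to 30 reads per library over a counted length of 123 bases, and its treatments overlapped in all comparisons. In 36 of the 74 genes at least 1 library had fewer than 100 reads.

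The libraries of a group differed from each other more over the members, with a median SD of 0.19 to 0.449 per group on the log2 scale, than over all genes, with 0.1 to 0.169. Soil N100 replicate 2 of (v + 28) in 2013 lay 0.40 (median over the 74 genes, log2 scale) under its group mean, against 0.23 and 0.20 above it for replicates 1 and 3. At (v + 35) it lay 0.37 under the mean, with replicates 1 and 3 at 0.08 and 0.18 above it. The medians over all genes were within 0.03 of 0 in every library. Replicate 2 was the lowest soil N100 library at both stages of 2013 in 48 members (64.9%), beside 17.7% of all genes. It was not above all control libraries in 17 members at (v + 28) and 26 members at (v + 35). Against the control mean, the median difference of replicate 2 was 0.51 and 0.40, and that of the other soil N100 libraries of 2013 was 0.84 to 1.12.

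**Figure D3:**
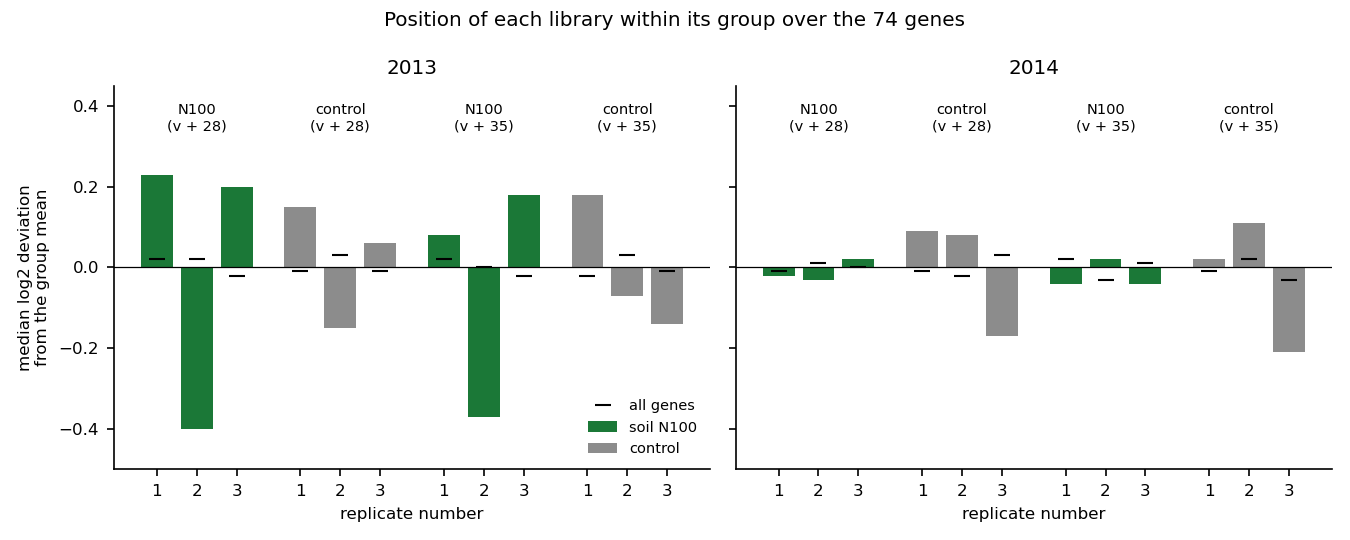
Bars give the median over the 74 genes of the log2 deviation of each library from the mean of its group, with soil N100 left of control at each stage, and dashes give the same median over all 16899 genes. Soil N100 replicate 2 of 2013 lies at -0.40 and -0.37, and control replicate 3 of 2014 at -0.17 and -0.21, while the dashes stay within 0.03 of 0.

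With both of these soil N100 libraries left out, a choice made after seeing the data, the median LFC of the members in 2013 was 1.15 at (v + 28) and 0.90 at (v + 35), and 76 genes met the rule, of which 70 were members. In 2014 the soil N100 libraries lay within 0.04 of their group means, and control replicate 3 stood apart, 0.17 and 0.21 below the control means at (v + 28) and (v + 35). It was the lowest control at both stages in 32 members (43.2%), beside 10.3% of all genes. The number of genes that met the rule was 51 without this library at (v + 28) and 52 without it at (v + 35), of which 49 and 51 were members. Without control replicate 1 at (v + 28) in 2014, 111 genes met it. Over all 24 such omissions 12 members met the rule every time, among them the glucanase *VIT_08s0007g06040*, DMR6 (*VIT_16s0098g00860*), CXXS1 (*VIT_19s0014g05090*), the protein phosphatase *VIT_01s0150g00510* and the MYB factor *VIT_07s0197g00060*.

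Marker genes of other parts and states of the berry were measured in the same libraries. Their descriptions come from the study's tables of genes called between the treatments on these same samples. A separation of their sums is therefore no independent evidence of a direction. The summed level of 30 photosystem genes was 916, 758 and 1129 RPKM in soil N100 libraries at (v + 28) in 2013, against 627, 519 and 656 RPKM in control libraries. It was also higher in every soil N100 than in every control library at (v + 35) in both years, and overlapped at (v + 28) in 2014. Soil N100 replicate 2 was the lowest of its group here too at both stages of 2013. The 4 genes of dividing cells had a lower sum in soil N100 without overlap in 2013, with 65.2 to 77.4 RPKM in soil N100 against 113 to 124 RPKM in control berries at (v + 35), and overlapped in 2014. The 15 seed genes had 400.1 to 481 RPKM in soil N100 against 610.1 to 796 RPKM in control berries at (v + 35) in 2013, and overlapped in the other 3 comparisons. The 4 genes of the ripe berry, which include both thaumatin-like members, had a higher sum in soil N100 without overlap except at (v + 28) in 2014. Except for 1 photosystem gene, listed at 0 in a library of 2013, no marker was at 0. The part of these marker genes in the LFC of the members was not tested.

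The change between the stages was not used by the rule, which took differences between treatments within a stage. Both contrasts use the same group means and are independent only where the treatments have the same spread. The median SD of the members at (v + 28) was 0.449 in soil N100 and 0.26 in control berries in 2013, and 0.19 in soil N100 and 0.348 in control berries in 2014, and the part of this in the stage change was not tested. The stage change was tested as (v + 35) minus (v + 28), averaged over both treatments, with limma on log2(RPKM + 0.5) in each year, and calls required an LFC of 0.6 or more in size and a p, adjusted by Benjamini-Hochberg over all genes tested, of 0.05 or less. In 2013, 17 of the 74 members (23.0%) fell, where 4.56% of 17298 genes tested did, and 9 members (12.2%) rose, beside 4.14% of all genes. In 2014, 17 members (23.0%) fell, beside 2.28% of 17171 genes, and 7 members (9.46%) rose, beside 1.09%. The median stage LFC of the members was -0.29 in 2013 and -0.35 in 2014, against -0.08 and -0.02 over all genes. The stage LFC was negative in 52 of the 74 members in 2013, beside 60.9% of all genes, and in 56 of the 74 in 2014, beside 53.5%. In soil N100 berries alone the median stage LFC of the members was -0.37 in 2013 and -0.32 in 2014, and in control berries -0.22 and -0.32. Rescaling by median ratios changed the split over all genes in 2013 to 902 that rose and 565 that fell, in place of 716 and 789, and left 9 and 17 members. The 7 members that rose in 2014 depended on single libraries, with 2 left without soil N100 replicate 2 or control replicate 1 of (v + 28) or control replicate 3 of (v + 35), and 3 without soil N100 replicate 2 of (v + 35).

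In 11 members the fall was called in both years, which held for 1.01% of 16899 genes, and in 3 members the rise was called in both, beside 0.627%. Left out singly, soil N100 replicate 2 of (v + 28), control replicate 1 of (v + 28) or control replicate 3 of (v + 35) in 2014 left 7 of the 11 and 1 of the 3 with both calls. Without soil N100 replicate 3 of (v + 28) or soil N100 replicate 2 of (v + 35) in 2014, 1 of the 3 also remained, and 8 and 9 of the 11. The largest fall was that of the glycosyl transferase *VIT_06s0004g05660*, with means of 4.93 RPKM at (v + 35) and 18.3 RPKM at (v + 28) in 2013 (LFC -1.72, SE 0.17, adjusted p = 2.26e-05). In 2014 they were 0.843 RPKM at (v + 35) and 8.98 RPKM at (v + 28) (LFC -2.80, SE 0.25, adjusted p = 0.000229). All 6 libraries of (v + 35) lay below all 6 of (v + 28) in each year. The same separation held for the unknown protein *VIT_14s0068g00510*, with 14 RPKM at (v + 35) and 44.8 RPKM at (v + 28) in 2013 (LFC -1.66, SE 0.19, adjusted p = 5.56e-05) and a stage LFC of -1.62 in 2014. CLC-B (*VIT_14s0068g02190*) had 2.47 RPKM at (v + 35) and 7.65 RPKM at (v + 28) in 2013 (LFC -1.29, SE 0.19, adjusted p = 0.000275), and 0.929 RPKM at (v + 35) and 2.81 RPKM at (v + 28) in 2014 (LFC -1.18, SE 0.12, adjusted p = 0.000535).

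**Figure D4:**
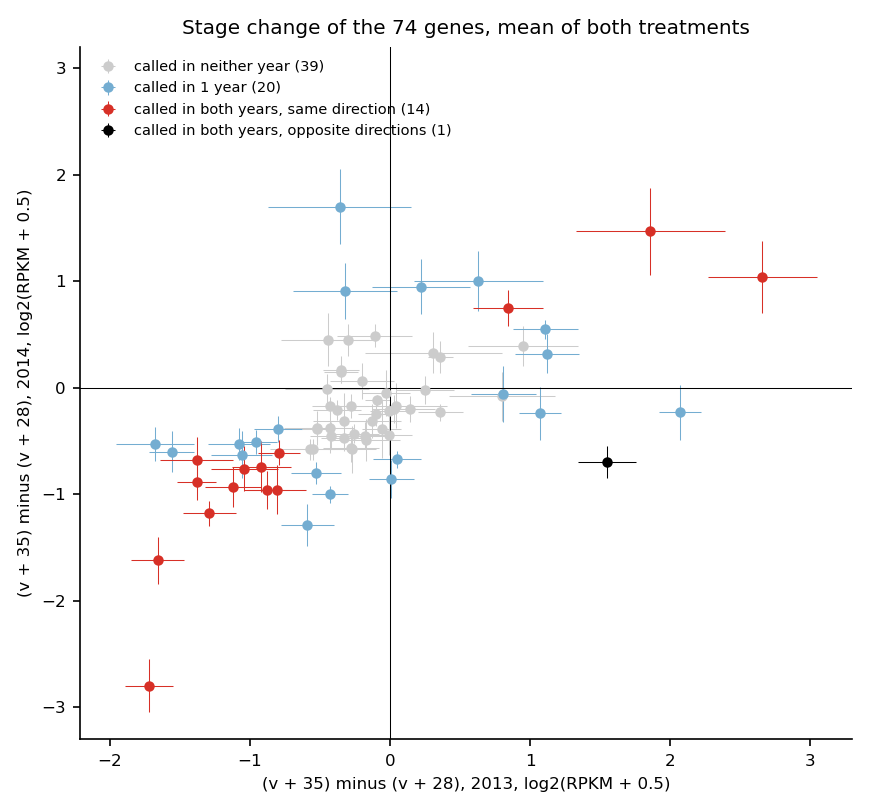
Each point is 1 of the 74 genes, with its stage LFC, (v + 35) minus (v + 28) averaged over both treatments, in 2013 on the horizontal and in 2014 on the vertical axis, and bars give the SE from limma. Of the 14 genes called in the same direction in both years 11 lie at the lower left and 3 at the upper right, and 1 gene was called in opposite directions.

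Of the 6 members of the cell wall category 5 fell in 2013 and 4 in 2014. In each year 23.0% of the 74 members fell, beside 4.56% of all genes in 2013 and 2.28% in 2014. The pectate lyases *VIT_01s0137g00240* (stage LFC -1.12 in 2013 and -0.93 in 2014) and *VIT_05s0051g00590* (-0.92 and -0.74) and AGP20 (-0.88 and -0.96) fell in both years. Expansin A6 fell in 2014 (LFC -1.29, SE 0.20, adjusted p = 0.0027), and in 2013 its stage LFC of -0.59 stayed just under the limit in size. The nodulin *VIT_17s0000g01160*, with stage LFCs of -1.38 in 2013 and -0.89 in 2014, and the undescribed neighbour of a pectate lyase, *VIT_17s0000g09800*, with -1.38 and -0.68, also fell in both. The calls of *VIT_17s0000g09800* and *VIT_05s0051g00590* in 2014 were close to the limits and were lost in 9 and 10 of the 12 fits that left out 1 library of that year, with stage LFCs of -0.83 to -0.56 and -0.92 to -0.58. Those of the GDSL lipase *VIT_14s0066g00250* (-0.70 to -0.52) and the unknown protein *VIT_19s0014g00460* (-0.91 to -0.62), which also fell in both years, were lost in 5 of the 12 each.

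The 3 genes that rose in both years had no description. *VIT_01s0010g02290* had means of 38.8 RPKM at (v + 35) and 4.74 RPKM at (v + 28) in 2013 (LFC 2.66, SE 0.39, adjusted p = 0.00025) and 57.1 RPKM at (v + 35) and 27.7 RPKM at (v + 28) in 2014 (LFC 1.04, SE 0.34, adjusted p = 0.0449). *VIT_13s0019g02850*, which moved with it between libraries, had stage LFCs of 1.86 and 1.47, and *VIT_12s0028g03560* had 0.84 and 0.75. Their calls in 2014 were lost in 8 (*VIT_01s0010g02290*, stage LFC 0.86 to 1.25) and 5 (*VIT_13s0019g02850*, 1.23 to 1.74) of the 12 fits without 1 library, whereas *VIT_12s0028g03560* kept its call in each. In *VIT_01s0010g02290* and *VIT_13s0019g02850* the treatments overlapped in all 4 comparisons. *VIT_18s0166g00250*, also undescribed, rose in 2013 (LFC 1.55, SE 0.21, adjusted p = 0.000173) and fell in 2014 (LFC -0.70, SE 0.15, adjusted p = 0.0106). Its means were 22.1 RPKM at (v + 35) and 7.55 RPKM at (v + 28) in 2013, and 9.01 RPKM at (v + 35) and 15.2 RPKM at (v + 28) in 2014, and the difference between the years was not tested. Without soil N100 replicate 2 of (v + 28) its stage LFC in 2014 was -0.59, short of the limit. In 39 members no stage change was called in either year, and for these a change, also one above the limit in size, cannot be told apart from none. ATPRB1 (*VIT_03s0088g00710*), for example, had a stage LFC of 0.95 in 2013 but missed the limit of the limma test (adjusted p = 0.0688).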

How the data were processed

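Per the sources of the study, the authors made the deposited RPKM values, 1 table per year, with CASAVA 1.8.2 for base calling, TopHat2 2.0.10 and Bowtie2 2.1.0 for mapping (12X assembly), and HTSeq 0.5.4p3 for counting uniquely aligned reads over V1 genes. The kit did not mark strand, so that overlapping genes on opposite strands cannot be told apart. Whole reads, which gave the depths, were recovered within 0.001 reads from the steps of RPKM for 25950 of 25951 genes in 2013 and 26122 of 26123 in 2014.

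LFCs between treatments are differences of means of log2(RPKM + 0.5), which understate the change at low levels. Each year was fitted apart with limma 3.58.1 (R 4.3.3), using 1 mean for each of 4 groups that share 1 estimate of the spread, an intensity trend, a minimum mean of 0.5 RPKM and Benjamini-Hochberg adjustment. Tables and plots used Python 3.11.15 with pandas 2.3.3, numpy 2.4.6 and matplotlib 3.10.9. In simulated data the stage fit called 94% of genes with an LFC of 1 in 2013 and 87% in 2014. Of those with an LFC of 0.7 it called only 60% and 56%. The rate for the members was not tested. Their median SD per group was 0.19 to 0.449 on the log2 scale, against 0.1 to 0.169 over all genes. Replicates were blocks of vines at 1 site, and 3 against 3 libraries cannot give an exact permutation p under 0.1.

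The members, lists and markers were chosen with earlier results of these data known. Genes named are the 12 members with the largest smallest LFC, all with a described function, the 3 nearest the limit on each side, up to 5 per direction with a stage call in both years, the 5 most abundant, and members whose ID numbers differ by at most 100 on a scaffold. Any other member is named only to complete the account. None of 26740 gene IDs matched the RefSeq tables at hand, so no sequence or position is given. Alternatives were other pseudocounts, minimum levels, limits and scalings, a replicate block, limma-voom on recovered reads, and omission of each library.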

Additional observations from a re-analysis of the deposited data

How the results depend on the processing

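The number of genes that met the rule depended most on its limit, with 156 at an LFC of 0.2 and 38 at 0.4 in place of 74 at 0.3. It was 96 and 59 with pseudocounts of 0.1 and 1 RPKM, 95 with either rescaling, and 51 to 111 without 1 library, and 58 members met it under both pseudocounts and both rescalings. Counts of members free of overlap can only stay or grow when a library is left out, so that omissions do not bear on them. The smallest LFC passed below 0 in these omissions for 9 members, and the cause was not tested. It ranged from -0.349 to 0.525 for *VIT_13s0019g02850*, from -0.161 to 0.484 for *VIT_15s0046g01570*, from -0.158 to 0.647 for *VIT_17s0000g04880*, from -0.062 to 0.337 for *VIT_00s0480g00040*, from -0.046 to 0.606 for *VIT_01s0026g02400*, from -0.034 to 0.419 for *VIT_14s0068g00510*, from -0.026 to 0.337 for *VIT_03s0088g00700*, from -0.019 to 0.548 for *VIT_05s0049g00780* and from -0.01 to 0.378 for *VIT_00s0480g00030*. Under other pseudocounts and rescalings no member was below 0.102.

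Without 1 library, 8 to 10 members rose and 17 to 20 fell between the stages of 2013, and 2 to 8 rose and 14 to 23 fell in 2014. Under every setting in which the gene was tested, 25 of 26 calls of 2013 and 13 of 24 of 2014 were kept. A gene left untested by a setting was not counted as a loss there. With a minimum mean of 2 RPKM in 2014, only 60 members were tested and 18 of the 24 calls were kept. None of 1094 values reversed. Deviations of same-numbered libraries correlated with r of -0.44 to 0.37, with 6 of 24 values above 0.1, so a pairing by number was not established. With a replicate block by number 5 members rose in 2014, and with a replicate block by treatment and number 3 rose, in place of 7, whereas 17 fell under both. For the 36 members with fewer than 100 reads in a library, the part of depth in their values was not tested.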
